A study of Mus musculus with 10 samples.

Results

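The PYHIN genes, also called the Ifi200 family, form a cluster on mouse chromosome 1. They were followed here in MC38 colon carcinoma cells sorted from tumors of mice on a high-fat diet and of mice on a control diet. The members are 9 genes, taken by matching the symbols Ifi202b, Ifi203, Ifi204, Ifi205, Ifi207, Ifi209, Ifi211, Mndal and Aim2 to the gene identifiers of a table of 53379 genes. The family was selected on the diet comparison of these same libraries, with the values of Ifi205 and Aim2 among those already known, so every diet value of a member below is a description and supports nothing further. In the 8 members with enough counts to be tested, 6 had a higher fitted level on the high-fat diet and 2 a lower one. None passed the threshold. The ninth, Ifi202b, had 0 counts in all 10 libraries.

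MC38 is a mouse colon carcinoma line, implanted here in C57BL/6J mice. RNA was sequenced from tumor cells that carried the red fluorescent protein dTomato and lacked the leukocyte surface protein CD45, collected by sorting 21 days after implantation. One group was 5 mice fed a high-fat diet and the other 5 mice fed a control diet, with 1 library per mouse. Both groups received the same line; the make-up of the diets was not analysed here.

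Proteins of this family usually pair an N-terminal pyrin domain, through which they assemble with other proteins, with 1 or more HIN domains, which bind DNA. Interferons induce many of the genes, which is where the prefix Ifi comes from. Aim2 recognises double-stranded DNA in the cytosol and engages the adaptor Pycard (ASC) and caspase-1 in an inflammasome. The protein of Ifi204, p204, takes part in DNA-triggered interferon induction through STING, and that of Ifi202b lacks a pyrin domain and restrains Aim2. Macrophages and other leukocytes express many members, so RNA of such cells in a tumor cell sort would also carry these transcripts.

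The cluster spans 681 kb of GRCm38, from 173350879 to 174031810 of chromosome 1, and holds 14 annotated PYHIN genes, the 9 members among them. Of the members, Aim2 (173350879 to 173466040) and Ifi209 (173630917 to 173647928) lie on the plus strand and 7 lie on the minus strand. In chromosome order the 7 are Ifi207 (173723427 to 173741747), Ifi204 (173747293 to 173766943), Mndal (173849126 to 173942491), Ifi211 (173896345 to 173913046), Ifi203 (173920407 to 173942672), Ifi202b (173962568 to 173982744) and Ifi205 (174011998 to 174031810). The annotated span of Mndal runs over Ifi211 and ends within that of Ifi203, and 37 exonic bases are annotated to both Mndal and Ifi203. No exon of any member overlapped an exon of a gene on the opposite strand.

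The promoters of the family are shown because most of them carry the same short element, with Aim2, Ifi209 and Ifi202b among those that do not. RefSeq promoters of GRCm38.p6, from 250 bases before a start site to 50 bases after it, were listed for 8 of the 9 members, at 10 start sites, and for 4 other PYHIN genes. They were searched on both strands for the core of the interferon-stimulated response element, GAAANNGAAA, and for the gamma-activated site, TTCNNNGAA. The listed start sites of Mndal and Aim2 lie inside the annotated spans given above, away from the 5′ ends of those spans. The Aim2 window therefore leaves out the annotated 5′ end of the gene. In the sequences below, read 5′ to 3′ on the gene's own strand, capitals mark matches.

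Mndal, first listed start site, chr1:173880138-173880437, minus strand: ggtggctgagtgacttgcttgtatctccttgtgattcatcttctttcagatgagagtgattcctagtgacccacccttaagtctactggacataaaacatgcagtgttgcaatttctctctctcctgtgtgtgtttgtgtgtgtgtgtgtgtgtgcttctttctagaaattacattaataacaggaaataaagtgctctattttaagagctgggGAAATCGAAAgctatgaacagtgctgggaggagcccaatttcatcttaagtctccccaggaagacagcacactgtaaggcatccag

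Ifi205, chr1:174031706-174032005, minus strand: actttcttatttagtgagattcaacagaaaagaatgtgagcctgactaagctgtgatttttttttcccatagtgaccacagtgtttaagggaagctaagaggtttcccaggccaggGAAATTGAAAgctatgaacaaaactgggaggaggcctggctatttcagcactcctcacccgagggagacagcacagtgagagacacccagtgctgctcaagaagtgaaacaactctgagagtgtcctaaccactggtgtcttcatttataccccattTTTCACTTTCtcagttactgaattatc

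Ifi211, chr1:173912997-173913296, minus strand: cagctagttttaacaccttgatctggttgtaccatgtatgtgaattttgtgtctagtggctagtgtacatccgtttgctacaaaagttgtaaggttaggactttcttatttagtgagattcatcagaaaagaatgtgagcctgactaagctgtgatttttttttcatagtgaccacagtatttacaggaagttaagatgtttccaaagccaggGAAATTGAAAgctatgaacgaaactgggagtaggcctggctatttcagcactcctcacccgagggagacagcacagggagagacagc

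Ifi209, chr1:173630609-173630908, plus strand: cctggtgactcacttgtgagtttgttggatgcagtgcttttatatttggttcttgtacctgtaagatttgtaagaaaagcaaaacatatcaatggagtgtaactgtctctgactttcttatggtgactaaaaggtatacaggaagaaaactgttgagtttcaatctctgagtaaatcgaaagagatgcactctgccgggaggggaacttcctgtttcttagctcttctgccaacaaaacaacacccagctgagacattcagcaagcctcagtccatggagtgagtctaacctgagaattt

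Ifi214, chr1:173535908-173536207, minus strand: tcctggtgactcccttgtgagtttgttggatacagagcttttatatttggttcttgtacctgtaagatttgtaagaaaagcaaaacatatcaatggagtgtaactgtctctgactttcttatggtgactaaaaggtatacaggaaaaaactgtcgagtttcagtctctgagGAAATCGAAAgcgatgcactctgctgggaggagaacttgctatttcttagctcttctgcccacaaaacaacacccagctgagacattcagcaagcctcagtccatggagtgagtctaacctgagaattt

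Aim2, chr1:173420354-173420653, plus strand: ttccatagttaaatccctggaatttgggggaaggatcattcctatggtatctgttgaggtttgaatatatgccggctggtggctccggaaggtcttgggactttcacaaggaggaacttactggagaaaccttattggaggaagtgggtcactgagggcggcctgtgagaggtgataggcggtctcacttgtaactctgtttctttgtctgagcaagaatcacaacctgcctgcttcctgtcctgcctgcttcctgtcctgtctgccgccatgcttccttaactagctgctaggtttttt

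The interferon element core was found in at least 1 listed promoter of 5 of the 8 members: Mndal, Ifi203, Ifi205, Ifi207 and Ifi211. Of the 14 PYHIN promoters 10 held it, against 3.44% of all 32851 listed mouse promoters. Several of the 10 are near copies of each other, so they are not 10 separate occurrences. The second listed window of Mndal, which overlaps the first, matched only as TTTCTCTTTC. The match was GAAATCGAAA in 7 PYHIN genes, which are Mndal, Ifi203 and Ifi207 among the members and Ifi206, Ifi208, Ifi213 and Ifi214 outside them. These 10 letters occurred, on either strand, in 16 promoters of 16 genes in the whole table, 0.0487% of it. The other 9 genes were Adcyap1, Gm26797, Gm31431, Parp11, Pnrc1, Ripk1, Serpinb6a, Six3os1 and Ddx58, which encodes the RNA sensor RIG-I. In Ifi211 and Ifi205 the match was GAAATTGAAA, found in 0.116% of all promoters. Relative to the start site its first base lay at -37 in Ifi211 and at -134 in Ifi205, and in Mndal the GAAATCGAAA match began at -36. Ifi205 held another match, TTTCACTTTC, at 23 bases after its start site.

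Some pairs of PYHIN promoters are near copies of each other and others are not. Aligned end to end, that of Ifi209 was 95.3% identical to that of Ifi214, the first of Mndal was 90.7% identical to the second listed promoter of Ifi203, and that of Ifi211 was 85.9% identical to that of Ifi207. That of Ifi208 was 89.5% identical to that of Ifi213 and 87.5% identical to that of Ifi206. Ifi205 and Ifi211 were 47.6% identical with gaps counted, but 190 of the 201 bases aligned between them were identical. Their listed windows hold like sequence, shifted relative to the start site. Mndal and Ifi207, which both hold GAAATCGAAA, were 55.9% identical. Ifi209 carried the aligned 10 letters with 1 difference, G1T, counted from 1 at the 5′ end of the core and with the Ifi214 base first, which ends the match. Aim2, Ifi202b and the first listed promoter of Ifi203 held no match to the interferon element core. The gamma-activated site was found in Ifi202b, and in 8.3% of all promoters. A match, or none, in these windows describes letters and says nothing about the binding of a factor.

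**Figure D1:**
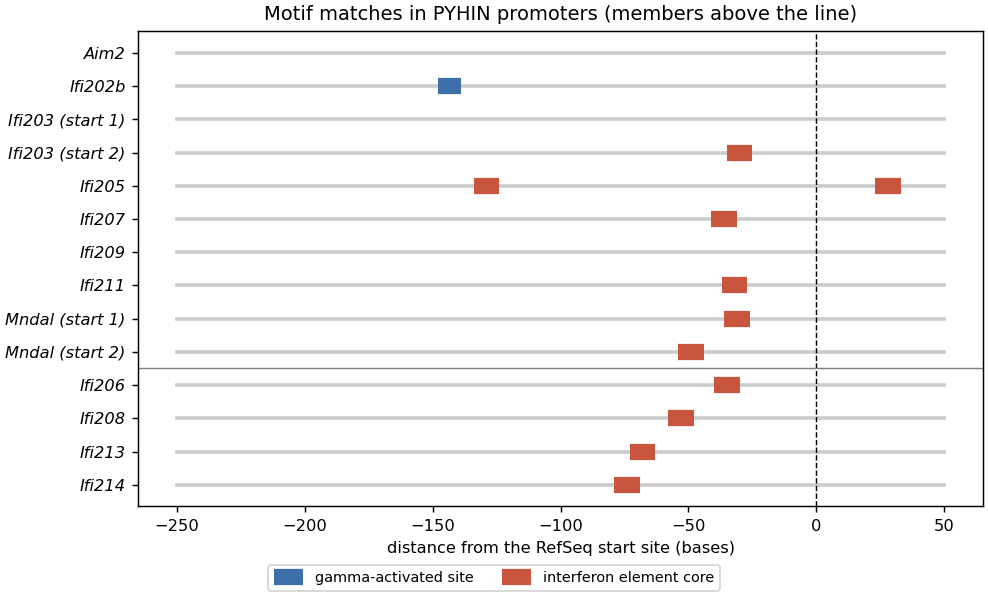
Positions of motif matches in 14 RefSeq promoters of PYHIN genes; the horizontal axis is the distance in bases from the start site (dashed line), each grey line is 1 promoter, red blocks mark the interferon-stimulated response element core and the blue block a gamma-activated site. The 10 promoters of members stand above the thin line and the 4 of other PYHIN genes below it; Aim2, Ifi209 and the first promoter of Ifi203 have no block.

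High-fat libraries held between 16513388 and 17154050 counts and control libraries between 17050797 and 18653705, and 14337 genes were tested. Values below are CPM (counts-per-million, scaled by TMM, a correction for library composition) unless said otherwise. Of 10 colon epithelial markers 1 was expressed well enough to test, and their summed level was 1.46 to 3.42 CPM in high-fat and 1.59 to 6.34 CPM in control libraries: Epcam, Krt20, Cdx2, Vil1, Krt18, Krt19 and Cldn7 were at 0 in at least 1 library. The fibroblast and mesenchymal genes Col3a1, Dcn and Pdgfra were abundant, with a summed level of 6283 to 12420 CPM for their list of 8 in high-fat and 6960 to 11870 CPM in control libraries. Most of that sum was Col3a1, averaging 7593 CPM in high-fat and 7982 CPM in control libraries, while Col1a2, Lum and Thy1 of the same list were scarce (5.59 to 19.4, 2.83 to 38.5 and 0.512 to 9.65 CPM over the 10 libraries). The epithelial side of the label is thus nearly absent at the RNA level, and dTomato, which defined the sort, was not measured.

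Leukocyte transcripts were present despite the CD45 gate and were unequal between libraries. The 10 pan-leukocyte markers, Ptprc (which encodes CD45) among them, summed to 20.6, 65.2, 56.0, 42.5 and 52.2 CPM in high-fat mice 1 to 5, against 61.0, 26.3, 157.3, 174.0 and 36.1 CPM in control mice 1 to 5. The 12 macrophage markers, all of which were tested and none at 0 in any library, summed to 30.8 to 66.3 CPM in high-fat mice and to 166, 62.4, 373, 422 and 75.1 CPM in control mice 1 to 5. Control mice 3 and 4 stood above all others on both lists. Dendritic cell markers summed to 8.79 to 14.2 CPM in high-fat and 11.4 to 28.4 CPM in control mice, and neutrophil markers reached at most 0.427 and 2.32 CPM. Endothelial markers summed to 24.0 to 39.6 CPM in high-fat and 17.8 to 25.6 CPM in control mice, and adipocyte markers to 3.17 to 9.10 and 7.26 to 20.2 CPM. By mean, most of the dendritic sum was Zbtb46 (9.35 CPM in high-fat and 9.88 CPM in control mice). Most of the endothelial sum was Pecam1 (18.2 and 17.2 CPM). The adipocyte sum was nearly all Fabp4 (4.73 and 11.3 CPM), with the other 5 markers under 3 counts in every library. Sums for T and NK cell markers were 1.96 to 14.6 CPM in high-fat and 0.689 to 22.6 CPM in control mice, and for B cell markers 1.96 to 4.48 and 1.33 to 8.44 CPM. In such bulk samples, fewer cells of a type and less RNA per cell cannot be told apart.

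Mndal, named for its likeness to the human myeloid cell nuclear differentiation antigen gene, was the most abundant member. It stood at 24.4, 45.7, 46.4, 45.4 and 43.2 CPM in high-fat mice 1 to 5, against 20.1, 16.6, 35.2, 29.3 and 21.4 CPM in control mice 1 to 5. High-fat mice 2 to 5 lay above every control mouse, while high-fat mouse 1 lay below control mice 3 and 4. The means were 41.0 ± 9.34 CPM in high-fat and 24.5 ± 7.55 CPM in control mice (SD, n = 5 each), a fitted log2 change of 0.74 (SE 0.22).

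Ifi205, whose protein in mouse macrophages is known for controlling expression of Pycard, had the largest fitted change of the 8 tested members. It was at 3.57, 8.59, 7.87, 7.86 and 10.1 CPM in high-fat mice 1 to 5, against 2.67, 1.91, 4.37, 5.17 and 2.22 CPM in control mice 1 to 5. Again high-fat mice 2 to 5 lay above all 5 control mice and high-fat mouse 1 among them. The means were 7.604 ± 2.44 and 3.27 ± 1.43 CPM in high-fat and control mice (SD, n = 5 each), 2.32-fold in the fit (log2 change 1.22, SE 0.32).

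Ifi203 was at 8.86, 23.3, 26.0, 18.7 and 17.1 CPM in high-fat mice 1 to 5, against 10.4, 6.25, 16.8, 14.5 and 5.29 CPM in control mice 1 to 5. Its log2 change was 0.82 (SE 0.35). Ifi211 was at 6.01, 9.43, 11.1, 8.03 and 14.4 CPM in high-fat mice 1 to 5, against 6.70, 4.19, 7.86, 7.54 and 3.70 CPM in control mice 1 to 5, and its log2 change was 0.71 (SE 0.26). For both genes high-fat mice 2 to 5 lay above every control mouse, in Ifi211 by a narrow margin (8.03 CPM in high-fat mouse 4 and 7.86 CPM in control mouse 3), and high-fat mouse 1 lay among the controls. Of the 50-base windows of Ifi211, 72.8% also occurred in transcripts of other genes, mostly Ifi205 (44.7%) and Ifi204 (30.1%), so its count may hold reads of theirs or lack reads of its own. The same limit holds, with smaller shares, for Ifi204 (20%), Mndal (19.6%), Ifi205 (18.6%), Ifi203 (12.4%) and Ifi207 (7.29%).

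Ifi204, Ifi207 and Ifi209 did not have 4 high-fat mice above every control mouse. Ifi204 was at 2.08, 3.58, 4.27, 3.96 and 4.37 CPM in high-fat mice 1 to 5, against 4.03, 1.64, 4.83, 5.59 and 1.48 CPM in control mice 1 to 5. Control mice 3 and 4 exceeded every high-fat mouse, control mice 2 and 5 lay under all of them, and the fitted change was 0.06 (SE 0.36), a size whose sign turned when 1 library was left out (-0.13 without control mouse 5). These are the control mice at the top and the bottom of the pan-leukocyte sums given above. With pan-leukocyte level as a term in the model the change of Ifi204 was 0.57 on the log2 scale.

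Ifi207 was at 1.19, 4.54, 5.98, 4.90 and 6.35 CPM in high-fat mice 1 to 5, against 3.79, 1.38, 6.17, 6.28 and 1.99 CPM in control mice 1 to 5, with a fitted change of 0.23 (SE 0.47). The groups covered nearly the same range, and the change was 0.48 when high-fat mouse 1 was left out, 0.01 when control mouse 2 was, and 0.87 with pan-leukocyte level as a term. Ifi209, the least abundant tested member with 202 counts over the 10 libraries, was at 0.535, 1.07, 2.07, 1.00 and 1.05 CPM in high-fat mice 1 to 5, against 1.01, 0.583, 1.22, 2.22 and 0.853 CPM in control mice 1 to 5. Its change of -0.04 (SE 0.39) had no stable sign, and was 0.32 without control mouse 4. Of its windows 33.4% also occur in Ifi214, which had only 2 counts in all.

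Aim2 was the member with the steadiest level. It was at 6.54, 9.97, 7.01, 8.98 and 6.58 CPM in high-fat mice 1 to 5, against 9.01, 9.17, 8.21, 8.39 and 9.72 CPM in control mice 1 to 5. High-fat mice 1, 3 and 5 lay below every control mouse and high-fat mouse 2 above them all, and the log2 change was -0.19 (SE 0.13), with means of 7.82 ± 1.56 CPM in high-fat and 8.90 ± 0.612 CPM in control mice (SD, n = 5 each). Of its windows 0.742% were shared with other genes, none of them in the family, so its count is the least open to reads of relatives among the tested members.

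Ifi202b had 0 counts in every library, of 173469415 counts in all. The limit that a count of 0 allows, 3 counts, was 0.161 to 0.182 CPM of a library's unscaled total. None of its 50-base windows occurred in a transcript of another gene. C57BL/6 mice, the strain from which MC38 came, are known for little or no expression of this gene.

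**Figure D2:**
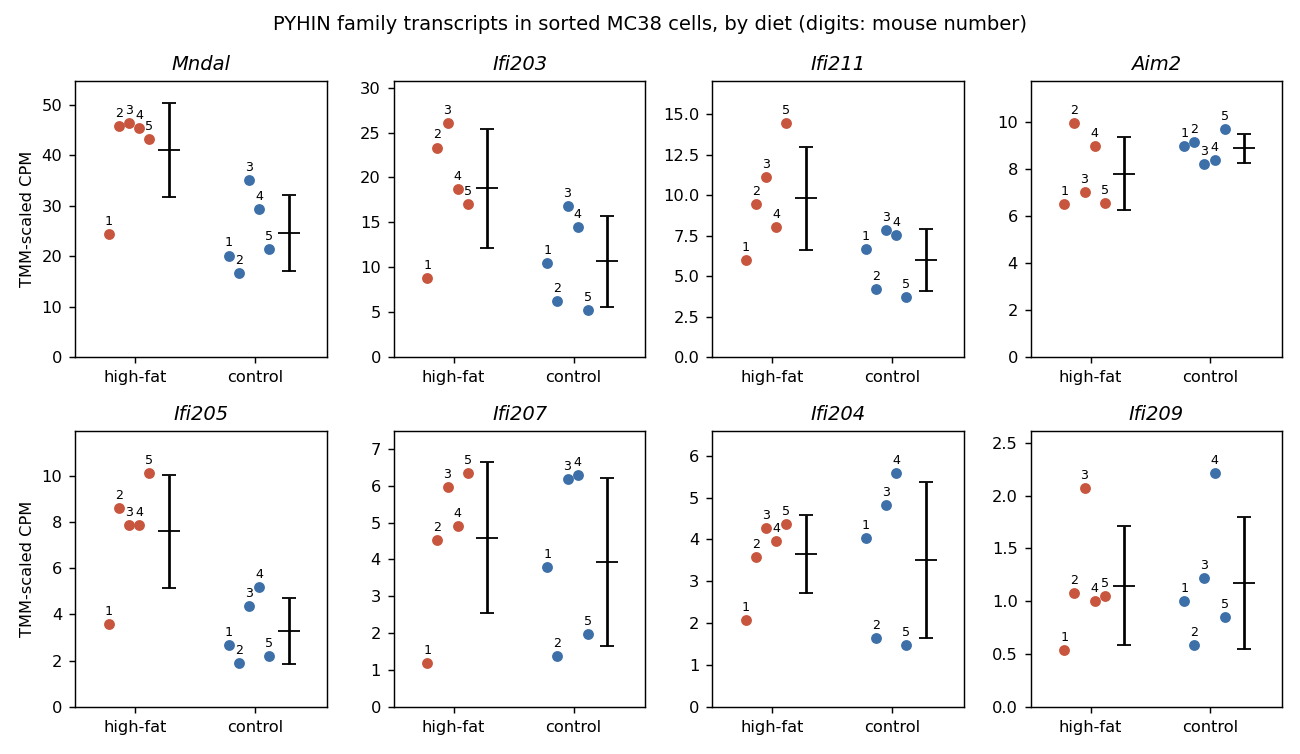
TMM-scaled CPM of the 8 tested members in each library, high-fat on the left and control on the right of each panel; points are mice with their numbers, and bars show the mean ± SD of 5 mice. For Mndal, Ifi203, Ifi211 and Ifi205 high-fat mice 2 to 5 lie above all control mice and high-fat mouse 1 lies among them; for Ifi207, Ifi204 and Ifi209 the groups cover much the same range.

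In edgeR's quasi-likelihood test over all 14337 genes 0 of the 8 tested members were called, and 0.0628% of all genes were. At an unadjusted p under 0.05, 4 members were higher (Ifi205, Mndal, Ifi211 and Ifi203) and 0 lower, against 5.45% of all genes higher and 6.62% lower. High-fat and control libraries were without overlap for 0 of the 8, against 2.18% of all genes. At least 4 of the 5 high-fat libraries lay above every control library for 4 members, against 4.85% of all genes. The median log2 change of the 8 was 0.47 beside 0.01 for all genes. Since the members were selected on this contrast, nothing is read from these shares.

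The calls turned on the libraries and on the model. DESeq2 called 2 members as higher, Ifi205 and Mndal, against 0.769% of its genes called higher, and limma-voom called 0. With pan-leukocyte level added to the model, edgeR called 4 as higher, Ifi203, Ifi205, Ifi211 and Mndal, against 1.63% of all genes, and the change of Ifi205 was 1.601 on the log2 scale. In that fit the change of Aim2 was still -0.19. Without control mice 3 and 4, edgeR called 2, Ifi205 and Mndal, against 0.823% of all genes. Those mice were the highest of the controls for 7 of the 8 members, the exception being Aim2, and the highest on the leukocyte lists, so leaving them out raises the change of those 7 by construction. The log2 changes without them were 1.75 for Ifi205, 1.36 for Ifi203, 1.08 for Mndal, 1.01 for Ifi211, 0.95 for Ifi207, 0.62 for Ifi204 and 0.49 for Ifi209.

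**Figure D3:**
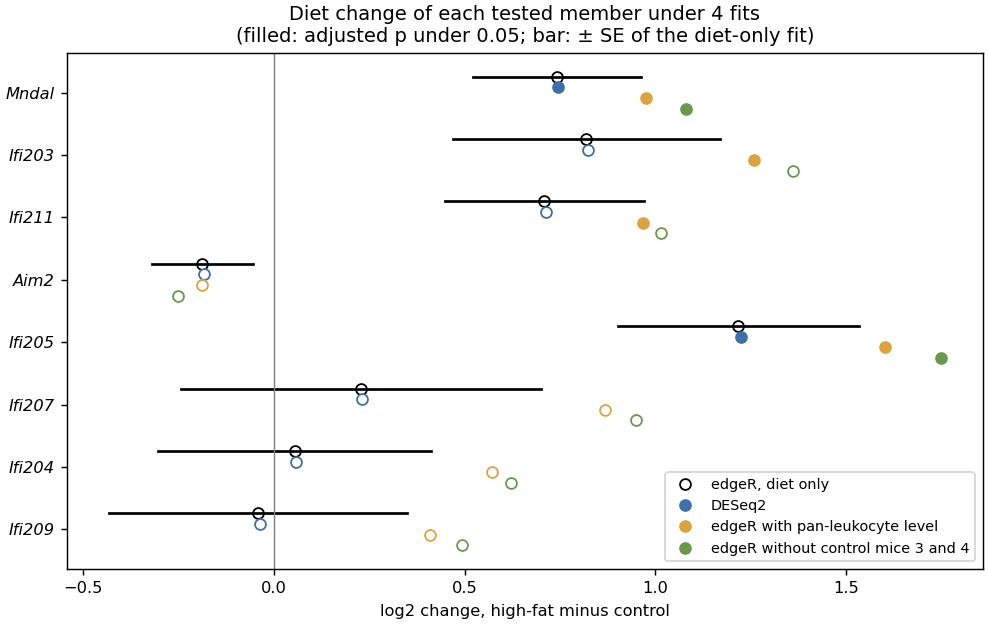
Log2 change (high-fat minus control) of the 8 tested members under 4 fits; filled points have an adjusted p under 0.05 and the black bar is ± 1 SE of the diet-only edgeR fit. The points of Aim2 lie below 0 and those of Mndal, Ifi203, Ifi211 and Ifi205 above 0 in all 4 fits, while Ifi209 lies below 0 in the diet-only and DESeq2 fits and above 0 in the other two.

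Within each diet the same libraries often stood at the ends of the range. High-fat mouse 1 was the lowest high-fat mouse for 8 of 8 tested members, Aim2 included, although for Aim2 its level was close to that of high-fat mouse 5 (6.54 and 6.58 CPM). Control mice 3 and 4 were the highest controls for 7 of 8. For Aim2 they were the lowest. As a description over the 10 libraries, each member's log2 CPM had a Pearson r with the mean of the other members of between 0.71 (Ifi209) and 0.93 (Ifi203) for 7 members, and of -0.28 for Aim2. These values share the libraries and, for Mndal, Ifi203, Ifi204, Ifi205, Ifi207 and Ifi211, some sequence.

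The spread between mice of one diet was wide for the family. The within-diet SD of log2 CPM was 0.95 for Ifi207, 0.68 for Ifi204, 0.67 for Ifi203, 0.63 for Ifi209, 0.59 for Ifi205, 0.48 for Ifi211, 0.42 for Mndal and 0.21 for Aim2. The median was 0.61 for the 8 members and 0.18 for all genes tested. For Ifi207 98.5% of tested genes varied less, and for Aim2 57.4% did. Counting error alone would give an SD of about 0.17 for Ifi207, 0.32 for Ifi209 and 0.12 for Aim2.

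**Figure D4:**
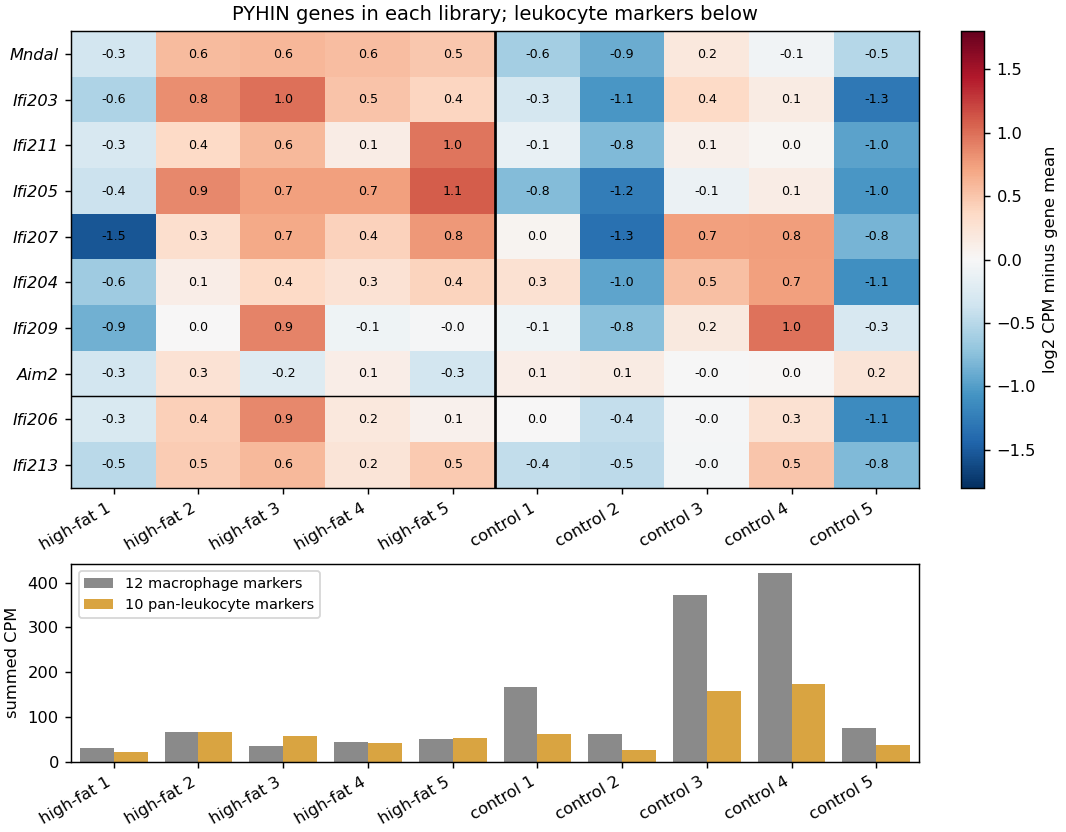
Upper panel, log2 CPM of each PYHIN gene minus that gene's mean over the 10 libraries (colour and printed value), with high-fat libraries left of the black line and control libraries right of it, the 8 tested members above the thin line and Ifi206 and Ifi213 below it; lower panel, summed CPM of the macrophage and pan-leukocyte markers. Control mice 3 and 4 have the tallest bars, and they are the highest controls for every member shown except Aim2.

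Levels can be compared between genes only per length, and were divided by the length of all annotated exons. On that scale (CPM per kb) Mndal stood at 11.3 ± 2.57 in high-fat and 6.76 ± 2.08 in control mice, and Ifi211, less certain for its shared sequence, at 5.49 ± 1.79 and 3.36 ± 1.08. Then came Ifi203 (2.80 ± 0.986 and 1.59 ± 0.749), Aim2 (2.23 ± 0.446 and 2.54 ± 0.175), Ifi205 (1.82 ± 0.584 and 0.782 ± 0.341), Ifi207 (1.34 ± 0.597 and 1.146 ± 0.667), Ifi204 (1.03 ± 0.261 and 0.987 ± 0.525) and Ifi209 (0.323 ± 0.159 and 0.332 ± 0.176), each as high-fat and then control mean with SD (n = 5 each). In high-fat mice the ranges of mean ± SD of Ifi203, Aim2 and Ifi205 overlapped, and so did those of Ifi205, Ifi207 and Ifi204, so their order is not settled by these data. In control mice Aim2 ranked above Ifi203, and the levels of Ifi207, Ifi204 and Ifi205 overlapped.

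The make-up of the family per kb shifted with these values. Of the summed CPM per kb of the 8 tested members, Aim2 held 8.89% ± 2.50 in high-fat and 15.8% ± 5.51 in control mice, and Ifi205 held 6.78% ± 0.921 and 4.34% ± 0.745 (SD, n = 5 each). For Ifi205 the range was 5.61 to 8.03% in high-fat mice and 3.82 to 5.59% in control mice, which lie side by side and are only just without overlap. The ranges of every other tested member overlapped between the diets. For Aim2 they were 6.22 to 12.3% in high-fat and 9.98 to 21.9% in control mice. Mndal held 43.1% ± 2.56 in high-fat and 38.8% ± 4.21 in control mice. These shares follow from the same diet values and are no separate evidence.

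**Figure D5:**
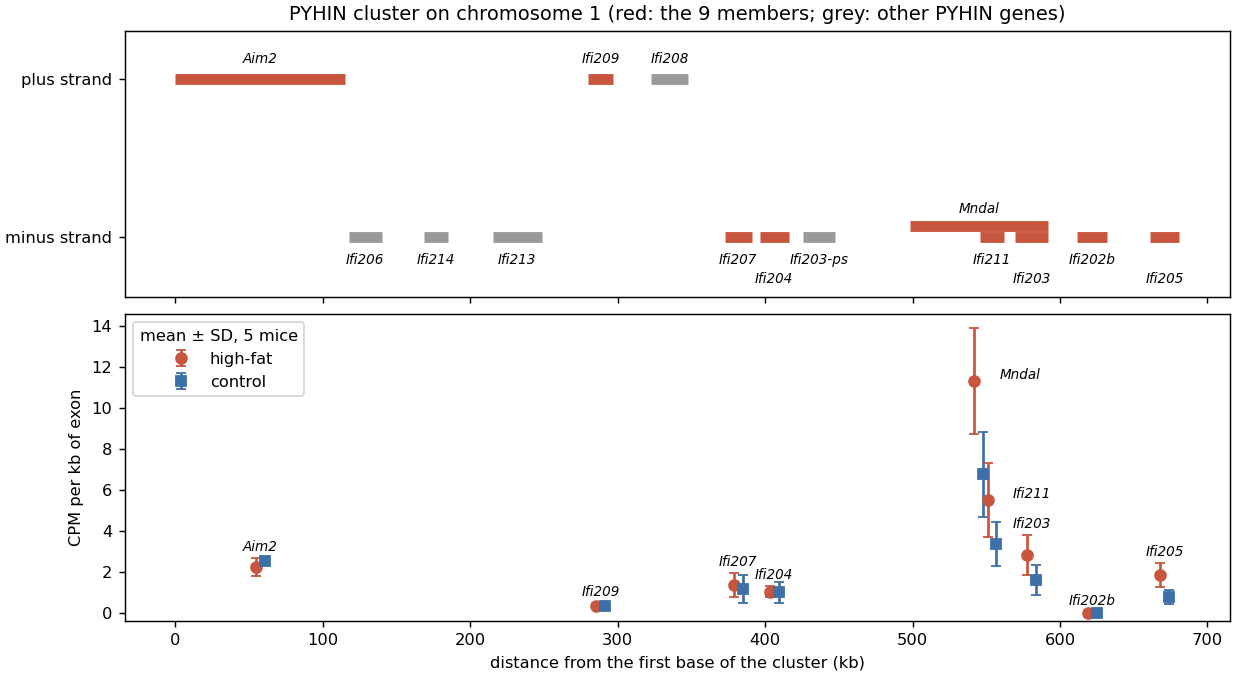
Map of the PYHIN cluster by distance from its first base in kb (upper panel; red bars are the 9 members and grey bars other PYHIN genes, by strand) and mean ± SD of CPM per kb of exon for each member at the middle of its gene (lower panel; high-fat circles left of control squares, 5 mice each). Mndal is the most abundant member, the only ones above 3 CPM per kb in either diet are Mndal and Ifi211, and Ifi202b lies at 0.

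Of the other PYHIN genes of the cluster, Ifi203-ps, Ifi208 and Ifi214 were scarce. Ifi206 and Ifi213 each had more counts over the 10 libraries than the tested member Ifi209 and fewer than the tested member Ifi204. Ifi206 stood at 4.06 ± 1.27 CPM in high-fat and 2.85 ± 0.971 CPM in control mice (log2 change 0.51, SE 0.27, edgeR adjusted p = 0.498), and Ifi213 at 3.03 ± 0.791 and 2.16 ± 0.850 CPM (log2 change 0.49, SE 0.27, edgeR adjusted p = 0.530). Neither passed the test. Ifi203-ps, Ifi208 and Ifi214 were below the filter on low counts, with 33, 29 and 2 counts over the 10 libraries. Ifi206, Ifi208 and Ifi213 share sequence, 13.6% of the windows of Ifi213 occurring in Ifi208.

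Among 10 tested protein-coding genes flanking the cluster, 5 on each side, 0 were called. They are the nearest tested genes but do not adjoin the cluster. The closest were Dusp23, which ends at 172632962, and Fh1, which starts at 175600374. The farthest lay 967 kb below the cluster and 1946 kb above it. The median log2 change of the 10 was -0.02, with 4 positive and 6 negative. The one with an unadjusted p under 0.05 was Slamf9, a receptor gene of the SLAM family, at 0.524 ± 0.213 CPM in high-fat and 2.75 ± 2.58 CPM in control mice (SD, n = 5 each; log2 change -2.38, SE 0.69, edgeR adjusted p = 0.210). DESeq2 called Slamf9 lower (adjusted p = 0.0151), while its edgeR change without control mice 3 and 4, which were its highest controls, was -0.73. Next by p were the exon junction paralog Rbm8a2 (0.23, SE 0.12), the exonuclease gene Exo1 (-0.19, SE 0.14) and Pld5 (-0.23, SE 0.22), all on the log2 scale.

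The partners of the family in DNA sensing and the inflammasome came next. Of 24 listed genes 16 were tested, 13 with positive and 3 with negative changes, and edgeR called 0 (4 higher and 1 lower at an unadjusted p under 0.05, where 5.45% of all genes were higher and 6.62% lower; median log2 change 0.10, beside 0.01 for all genes). The adaptor Pycard, on which Aim2 depends to reach caspase-1, had 0, 6, 2, 3 and 2 counts in high-fat mice 1 to 5 and 7, 1, 17, 14 and 4 counts in control mice 1 to 5, too few to test, and was highest in the 2 controls with the most leukocyte transcript. Casp1 itself was abundant, at 96.5 ± 6.45 CPM in high-fat and 89.6 ± 8.79 CPM in control mice, and Gsdmd, which encodes the pore-forming substrate of inflammatory caspases, stood at 87.2 ± 12.1 and 79.7 ± 11.2 CPM (SD, n = 5 each).

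The lowest p-values of that list were those of Zbp1, Il1b, Casp4 and Casp8. Zbp1, a sensor of Z-form nucleic acid, was at 291 ± 31.7 CPM in high-fat and 195 ± 36.7 CPM in control mice, with no overlap (250 to 319 and 154 to 229 CPM; edgeR adjusted p = 0.125, and 0.00290 in DESeq2). Casp4, the caspase that binds bacterial lipopolysaccharide in the cytosol, was at 71.2 ± 5.30 and 57.5 ± 6.81 CPM, and the initiator caspase gene Casp8 at 71.9 ± 7.59 and 60.6 ± 3.61 CPM. Il1b, the cytokine matured by caspase-1, was at 1.39 ± 0.458 CPM in high-fat and 4.62 ± 2.79 CPM in control mice, with 8.70 CPM in control mouse 4, 5.39 in control mouse 1 and 5.01 in control mouse 3. Il1b was called lower with the pan-leukocyte covariate (log2 change -1.17, edgeR adjusted p = 0.0224), and was -1.16 without control mice 3 and 4 (adjusted p = 0.157). That covariate does not hold macrophage level equal between diets. High-fat mouse 2 and control mouse 1 had pan-leukocyte sums of 65.2 and 61.0 CPM, but macrophage sums of 66.3 and 166 CPM. A macrophage term was not tested. DESeq2 called Casp4 (adjusted p = 0.0418) and Il1b (adjusted p = 0.00486) as well. The DNA sensor Cgas (33.1 ± 3.48 and 34.5 ± 4.12 CPM) and its effector STING, encoded by Tmem173 (46.2 ± 3.43 and 43.9 ± 6.52 CPM in high-fat and control mice), had log2 changes of -0.06 (SE 0.10) and 0.07 (SE 0.10). Trex1 had 0 counts in every library.

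Of 22 genes of interferon signalling 20 were tested, 11 with positive and 9 with negative changes, and edgeR called 0 (7 higher and 1 lower at an unadjusted p under 0.05, where 5.45% of all genes were higher and 6.62% lower; median log2 change 0.01, beside 0.01 for all genes). The interferon genes themselves were almost unread, with 11 counts of Ifnb1 and 10 of Ifng over the 10 libraries. Usp18, which restrains the type I interferon receptor, was at 20.3 ± 1.95 CPM in high-fat and 13.9 ± 3.63 CPM in control mice. Irf9, the DNA-binding part of the factor that reads the response element, was at 66.6 ± 5.84 and 45.7 ± 13.6 CPM (SD, n = 5 each; edgeR adjusted p of 0.210 for Usp18 and 0.249 for Irf9). Socs3, an inhibitor of JAK kinases, was at 265 ± 32.7 and 331 ± 49.8 CPM (edgeR adjusted p = 0.276). The receptor genes Ifnar1, Ifnar2 and Ifngr2 had changes between -0.09 and -0.03 on the log2 scale, and Ifngr1 one of 0.25 (SE 0.09). With the pan-leukocyte covariate Usp18 and Irf9 were called higher (edgeR adjusted p of 0.0115 and 0.000859), where 1.63% of all genes were. They were also called higher without control mice 3 and 4, where 0.823% of all genes were. Those mice were the highest controls for both genes, so leaving them out raises both changes by construction.

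The tested genes outside the family whose log2 CPM most resembled the mean of the 8 members (each scaled to its own SD) over the 10 libraries were Slfn2 (Pearson r = 0.98, Spearman rho = 0.93), Ifih1 (0.94 and 0.88), Trim12c (0.94 and 0.84), Dtx3l (0.94 and 0.79) and Ehbp1l1 (0.94 and 0.90). The same 5 had an r of 0.93 to 0.97 after each diet's mean was subtracted. These values were picked as the highest of 14337 and all points share the same libraries, so they are given as a description. Ifih1, which encodes the RNA sensor MDA5, was at 71.3 ± 9.12 CPM in high-fat and 57.8 ± 14.8 CPM in control mice, and Slfn2 at 11.3 ± 2.87 and 8.55 ± 3.58 CPM (SD, n = 5 each). None of the 5 was called in edgeR's diet-only fit, where their log2 changes ran from 0.24 for Ehbp1l1 to 0.40 for Slfn2. With the pan-leukocyte covariate Slfn2, Ifih1, Trim12c and Dtx3l were called higher, with changes of 0.36 for Dtx3l to 0.77 for Slfn2 on the log2 scale. In that fit 1.63% of all genes were called higher. The 5 genes were picked for their likeness to the members, so these calls are no separate evidence.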

How the data were processed

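RNA was sequenced from sorted MC38 cells of 10 mice, 5 per diet. The authors deposited raw counts per gene, as whole numbers in 1 table with a column per mouse. Per the submitters' processing notes, cutadapt 1.15, FastQC 0.11.5, BWA 0.7.12 and DESeq2 1.24.0 were used and the builds were GRCm38 and mm10; no roles are given. How reads were counted, whether by strand and whether reads mapping to several places were kept, is not given in the sources used here, so counts of genes with shared sequence, or overlapping genes, are less certain. All 10 columns were mapped by name and 53379 rows were read. Every row was a gene identifier.

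Symbols, exons and coordinates came from GENCODE M21 (GRCm38), promoters from RefSeq (GRCm38.p6). Windows of 50 bases of all annotated transcripts of a gene were matched, on both strands, to transcripts of all other genes. The main test was that of edgeR 4.0.16, run in R 4.3.3 (TMM scaling, filterByExpr, robust quasi-likelihood fit, diet as the single term, two-sided, Benjamini-Hochberg over 14337 genes, threshold 0.05). SE is the absolute log2 change divided by the square root of F. DESeq2 1.42.0 and limma 3.58.1 (voom) were alternatives. The fits were tested on simulated data. CPM are counts divided by TMM-scaled library sizes; limits for a count of 0 cover counting error only, as reads carry no molecular identifiers. No 2 libraries agreed within sampling noise (lowest chi-square per degree of freedom 7.67 over 45 pairs).

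The members, gene lists and alternatives were chosen with earlier results of these data known. All 10 lists of cell type markers were summed as CPM. All 9 members were named, with the other PYHIN genes, the 4 genes of each list with the smallest p (1 of them is not reported here), the 5 flanking genes on each side as a list, and the 5 genes most like the family mean. Genes named beyond these (such as Pycard, Casp1, Gsdmd, Cgas, Tmem173 and Trex1) were chosen after their values were seen.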

Additional observations from a re-analysis of the deposited data

Results flagged for a closer look

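Within a diet, 20 groups of 5 libraries were examined, 1 for each diet of the 8 tested members and of Ifi206 and Ifi213, for a single library far from the rest. Chance flags about 1 in 20 such groups, and 1 was flagged. It was Mndal in high-fat mice, where mouse 1 stood at 24.4 CPM and the other 4 between 43.2 and 46.4 CPM, a gap of 0.854 of the whole range (critical value 0.71). High-fat mouse 1 also had the lowest pan-leukocyte sum of the 10 libraries, 20.6 CPM. The part of that difference in the value of Mndal was not tested. Without this mouse the log2 change of Mndal was 0.88.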

How the results depend on the processing

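The number of members called was 0 in the diet-only edgeR fit. It was 0 with RLE size factors, without the low-count filter, in limma-voom, with library size as a covariate and with the replicate block, and between 0 and 0 when each library was left out in turn. It was 2 with DESeq2, 4 with the pan-leukocyte covariate and 2 without control mice 3 and 4. Over all genes the number called, 9, became 53 without the filter, 316 with DESeq2, 5 with limma-voom, 0 with library size as a covariate (817 genes at an unadjusted p under 0.05), 471 with the pan-leukocyte covariate and 276 without control mice 3 and 4, and lay between 1 and 27 when each library was left out. The cause was not tested. No sign was seen that mouse numbers pair the libraries: deviations of same-numbered libraries correlated at -0.36 to 0.333, 1 of 5 high-fat libraries matched its own number best, and the replicate block gave 16 genes. With 5 pairs this check cannot settle whether libraries were paired.

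In the 18 alternatives the changes of Ifi203, Ifi205, Ifi211 and Mndal were 0.53 or more and that of Aim2 was -0.28 to -0.11. That of Ifi207 (0.23) ranged from 0.008 without control mouse 2 to 0.95 without control mice 3 and 4. The change of Ifi207 was positive in all 18, but its SE in the diet-only fit was 0.47, so its sign is not settled. That of Ifi204 (0.06) turned to between -0.134 and -0.006 in 4 of the fits that left out 1 library (high-fat mouse 3, -0.006, or 5, -0.017; control mouse 2, -0.127, or 5, -0.134; the highest of these fits, without control mouse 4, gave 0.290). That of Ifi209 (-0.04) turned to 0.176 with the library size covariate, 0.409 with the pan-leukocyte covariate and 0.493 without control mice 3 and 4, and to 0.142 and 0.007 without high-fat mouse 1 or 4 and 0.324 without control mouse 4, and was -0.362 without high-fat mouse 3. Depth limits Ifi209, at about 20 counts per library, and the genes below the filter.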
